A study of Mus musculus with 9 samples.

Results

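Genes of sterol and fatty acid synthesis were followed in primary mouse microglia treated with R848, IFN-α or both. The set holds 32 genes chosen by name for their place in the pathway, with earlier results of these data known. They were looked up by symbol among 24411 gene rows of the count files. All 32 were matched and passed the low-count filter, among 11002 genes tested. They were divided by role into 8 mevalonate and isoprenoid enzymes, 11 squalene and sterol enzymes, 5 regulators of the SREBP system, 4 genes of sterol transport and storage and 4 enzymes of fatty acid synthesis.

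Cholesterol is built from acetyl-CoA through the mevalonate pathway to isoprenoids, then through squalene and lanosterol to the sterol itself, while fatty acids are built from the same acetyl-CoA by a separate set of enzymes. Most of these genes are targets of the SREBP transcription factors, which are made as membrane proteins of the endoplasmic reticulum. When sterols are low, the escort protein Scap carries SREBP to the Golgi for cleavage, and when sterols are high the Insig proteins hold it back. In macrophages, the cell family to which microglia belong, interferon and Toll-like receptor signals are known to alter sterol metabolism.

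The combined group received 1 µM R848 and 100 U/ml IFN-α, the R848 group 1 µM R848 alone and the IFN-α group 100 U/ml IFN-α alone, each for 4 h and each with 3 libraries. In mice R848, a small molecule also called resiquimod, activates the endosomal receptor TLR7. IFN-α belongs to the type I interferons. All 9 libraries came from cells of 3-day-old pups of the ICR strain, grown as mixed glia, freed by shaking and plated for 24 h before treatment. An untreated control, which the design text also names, was not analysed here, so every difference below is between treatments. The labels do not say whether replicates were separate cultures or whether pups were pooled, and the p-values therefore cover the spread among these libraries alone, which may be technical.

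Gene counts ran from 2795385 to 6005578 per library in the combined group, from 2817772 to 3298567 in the R848 group and from 2505941 to 2852960 in the IFN-α group. The 32 genes took 5985 to 12961 of these counts in the combined libraries, 8176 to 9220 in the R848 libraries and 7569 to 9168 in the IFN-α libraries. All 14 microglia markers listed were detected, but so were all 11 astrocyte markers. Summed astrocyte markers ranged from 2805 to 3976 CPM (counts scaled to the size of each library) in the combined libraries, from 1855 to 2127 CPM in the R848 libraries and from 1405 to 1776 CPM in the IFN-α libraries. Summed microglia markers ranged from 3582 to 3933 CPM, from 3114 to 3552 CPM and from 5219 to 5687 CPM in the combined, R848 and IFN-α libraries. Library pairs within a group correlated at 0.967 to 0.983 over genes on the log2 CPM scale, with R848 replicate 1 lowest on average, and combined replicate 2 had the highest astrocyte sum. Summed markers of other cells were lower. In the combined, R848 and IFN-α groups the oligodendrocyte markers averaged 584, 506 and 686 CPM, the fibroblast markers 317, 300.2 and 207 CPM, the neuron markers 164, 141 and 155 CPM, and the endothelial markers 46.1, 18.4 and 58.0 CPM. Of 7 endothelial markers listed, only 3 were tested. All 3 were called higher in the combined group than with R848, beside 19.2% of all genes tested. Against IFN-α, 1 of the 3 was higher and 1 lower in the combined group (18.5% and 14.7% of all genes tested). The untested Pecam1, Cldn5, Tek and Emcn had 8, 1, 6 and 0 counts in all libraries together, and neuronal Rbfox3 had 12. The part of other cell types in the results below was not tested, and in bulk RNA fewer cells of a type and less RNA per cell cannot be told apart.

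Sterol synthesis genes were lower with R848 and IFN-α together than with R848 alone. Between the combined group and R848, 18 of 32 genes were lower and 1 was higher in the combined group at an adjusted p under 0.05 (edgeR quasi-likelihood test, Benjamini-Hochberg adjustment over all genes tested), while 13 did not pass. Of all genes tested, 16.7% were called lower and 19.2% higher in this comparison. The median log2 fold change was -0.47 over the 32 genes and -0.03 over all genes tested. Each combined library lay below each R848 library in 18 of the 32 genes, against 22.4% of all genes tested. These were the 18 genes called lower, and the separation is no further evidence because the calls rest on the same libraries. Leaving out 1 library gave 14 to 19 lower genes, and leaving out R848 replicate 1 and combined replicate 2 together, a choice made after seeing the data, gave 15. Only Npc2 was called higher, and leaving out R848 replicate 1 added a second gene, Scd2, which was then higher in the combined group by a log2 fold change of 0.22 (adjusted p = 0.0391).

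Sterol synthesis genes were higher with R848 alone than with IFN-α alone. Of the 32 genes, 15 were higher and 6 lower with R848, against 18.4% and 19.0% of all genes tested, and 11 did not pass. The median log2 fold change was 0.30 over the 32 genes and 0.02 over all genes tested. Between the combined group and IFN-α 1 gene was higher, 7 were lower and 24 did not pass, against 18.5% and 14.7% of all genes tested called higher and lower. The 7 became 11 under upper-quartile scaling. Library totals alone gave 17 lower and 0 higher. The median there was -0.19 for the 32 genes and -0.01 for all. Any difference among the 3 groups was called for 22 of 32 genes, where 50.3% of all genes tested were called. The 3 comparisons use the same 3 groups of libraries and so are not independent of each other.

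Across the comparisons, 13 genes were lower in the combined group than with R848, higher with R848 than with IFN-α, and not called between the combined group and IFN-α. They were Hmgcs1, Mvd, Idi1, Fdps, Fdft1, Sqle, Lss, Cyp51, Msmo1, Hsd17b7, Sc5d, Stard4 and Fasn. The share of all genes tested with the same pattern was not counted. Both calls that define it rest on the same R848 libraries. Their log2 fold changes between the combined group and IFN-α ran from -0.35 to 0.35, with 10 below and 3 above 0 and a median of -0.19. The 95% intervals of these differences reached from -0.94 to 0.84 at their outer bounds, so differences of that size are not shown to be absent. Scaling bears on this. Under upper-quartile scaling 4 of the 13, Fdps, Fdft1, Sqle and Msmo1, were called lower in the combined group than with IFN-α, and with library totals alone Lss, Cyp51 and Hsd17b7 were called as well, 7 in all. Without R848 replicate 1, Fdps and Msmo1 were called, and both were called as well with only the 2 groups compared in the fit. Pmvk, Ebp, Dhcr7 and Soat1 instead were lower in both R848-containing groups than with IFN-α, with no call between the combined group and R848. Npc1 was lower in both than with IFN-α as well, and was also lower in the combined group than with R848. Another 8 genes, Acat2, Ggps1, Tm7sf2, Srebf1, Scap, Insig2, Acly and Scd2, were called in none of the 3 comparisons.

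**Figure D1:**
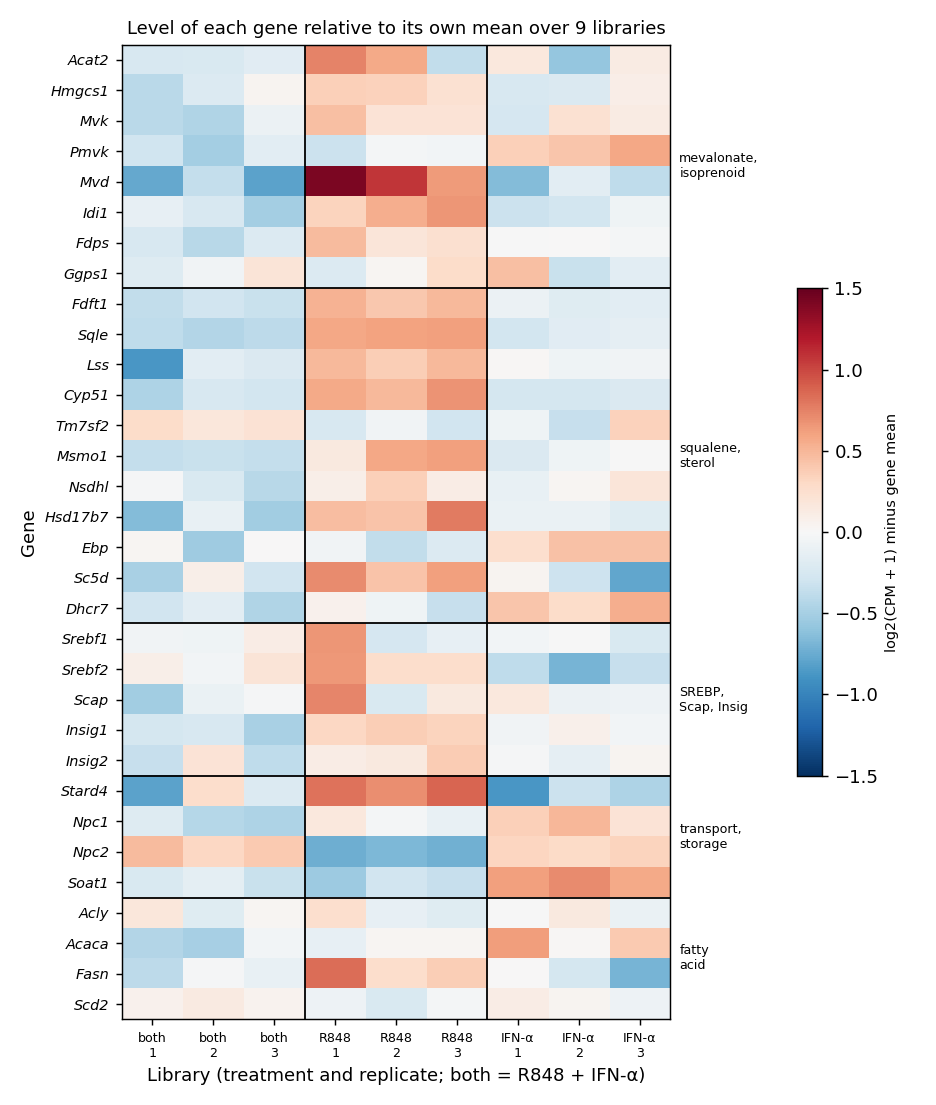
Level of each of the 32 genes in each of the 9 libraries, as log2(CPM + 1) minus the gene's mean over the 9 libraries; rows are genes ordered by role, columns are libraries, red is above and blue below the gene's own mean. The 13 genes that were lower in the combined group than with R848 and higher with R848 than with IFN-α are red in the 3 R848 columns, while Npc2 is blue there and Soat1 is red in the 3 IFN-α columns.

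Per length, the set covered a wide span of abundance. Npc2, a lysosomal sterol-binding protein, stood at 174 CPM per kilobase of exon in the combined group, 80.7 with R848 and 164 with IFN-α, the highest level of the set in all 3 groups. Scd2, Insig1 and Acly followed in the combined group at 42.3, 42.0 and 35.6 CPM per kilobase. There the Insig1 libraries overlapped those of both Scd2 and Acly, while each Scd2 value lay above each Acly value. Acaca, the cytosolic acetyl-CoA carboxylase, was lowest at 0.409 CPM per kilobase in the combined group, 0.514 with R848 and 0.689 with IFN-α. Lengths are unions of all annotated exons, so a gene whose short isoform is the one in use is understated.

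The mevalonate and isoprenoid enzymes turn acetyl-CoA into the building blocks of squalene. Their summed level was 155 ± 7.68 CPM in the combined group, 243 ± 10.5 CPM under R848 and 187 ± 7.31 CPM under IFN-α (SD, n = 3 each), with no overlap between any pair of groups. Of the 8 genes, 5 were lower in the combined group than with R848 (Hmgcs1, Mvk, Mvd, Idi1 and Fdps) and none was higher, with a median log2 fold change of -0.60. The shares over all genes tested were 16.7% lower and 19.2% higher. Between R848 and IFN-α, 4 were higher and 1 was lower with R848 (18.4% and 19.0% of all genes tested), with a median of 0.38. Against IFN-α, 1 was lower and none higher in the combined group (14.7% and 18.5% of all genes tested), with a median of -0.23.

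Mvd, mevalonate diphosphate decarboxylase, had the largest difference of the set. It stood at 5.58, 7.74 and 5.40 CPM in the combined libraries, at 28.8, 22.7 and 16.5 CPM in the R848 libraries, and at 6.17, 9.01 and 7.60 CPM in the IFN-α libraries. The 3 R848 libraries lay above all 6 others, and the combined and IFN-α libraries overlapped. Mvd was 3.74-fold lower in the combined group than with R848 (log2 fold change -1.90 ± 0.24 (SE), adjusted p = 1.48e-07) and 2.97-fold higher with R848 than with IFN-α (1.57 ± 0.24, adjusted p = 2.23e-06). Between the combined group and IFN-α its log2 fold change of -0.33 had a 95% interval of -0.94 to 0.27 (adjusted p = 0.421). The gene lies at chr8:122433601-122443422 on the minus strand of GRCm38, and 13.9% of the reads on both strands there were on the opposite strand, which was not counted.

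Hmgcs1 encodes the cytosolic HMG-CoA synthase near the head of the pathway. It stood at 18.6, 21.5 and 25.6 CPM in the combined libraries, at 31.97, 31.8 and 29.2 CPM in the R848 libraries and at 20.8, 21.3 and 26.6 CPM in the IFN-α libraries. Every R848 library lay above every other, but the gaps were small. Its log2 fold change was -0.47 ± 0.16 between the combined group and R848 (adjusted p = 0.0225) and 0.43 ± 0.16 between R848 and IFN-α (adjusted p = 0.0388). The call against R848 was lost without combined replicate 1 (-0.37, adjusted p = 0.114), combined replicate 2 (-0.45, adjusted p = 0.0628) or R848 replicate 2 (-0.45, adjusted p = 0.0607). The call between R848 and IFN-α was lost without R848 replicate 1 (0.39, adjusted p = 0.0698), R848 replicate 2 (0.41, adjusted p = 0.0902), IFN-α replicate 1 (0.37, adjusted p = 0.139) or IFN-α replicate 2 (0.37, adjusted p = 0.136). With DESeq2's test neither held (adjusted p = 0.073 and 0.11).

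Idi1, which isomerizes isopentenyl diphosphate, stood at 29.7, 27.5 and 22.6 CPM in the combined libraries, at 41.5, 48.2 and 52.2 CPM in the R848 libraries and at 25.8, 26.7 and 31.0 CPM in the IFN-α libraries. Its R848 libraries lay above all others, and its combined and IFN-α libraries overlapped. It was lower in the combined group than with R848 (log2 fold change -0.85 ± 0.15, adjusted p = 2.93e-05) and higher with R848 than with IFN-α (0.76 ± 0.15, adjusted p = 0.000118). Fdps, which makes farnesyl diphosphate, had 62.8, 55.4 and 64.6 CPM in the combined libraries, 104, 84.7 and 88.1 CPM in the R848 libraries and 74.0, 74.6 and 72.8 CPM in the IFN-α libraries. The 3 groups of Fdps values were ordered without overlap, R848 above IFN-α above the combined group. Fdps was lower in the combined group than with R848 (-0.59 ± 0.11, adjusted p = 9.78e-05), and its difference from IFN-α was -0.27 with a 95% interval of -0.50 to -0.03 (adjusted p = 0.0786). That comparison passed without R848 replicate 1, a library outside the contrast (-0.27, adjusted p = 0.0311). It passed as well with only the 2 groups compared in the fit (-0.27, adjusted p = 0.0393). The Fdps difference between R848 and IFN-α (0.32 ± 0.11, adjusted p = 0.022) was lost without R848 replicate 1 (0.21, adjusted p = 0.112), IFN-α replicate 1 (0.32, adjusted p = 0.0544), IFN-α replicate 2 (0.33, adjusted p = 0.0557) or IFN-α replicate 3 (0.31, adjusted p = 0.0708). Fdps shares exon sequence on the same strand with the predicted gene Gm43738, so its count is less certain.

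Mvk, mevalonate kinase, stood at 8.92, 8.60 and 11.4 CPM in the combined libraries, at 17.0, 14.2 and 14.1 CPM in the R848 libraries and at 10.0, 14.4 and 13.3 CPM in the IFN-α libraries. The combined libraries lay below the R848 libraries, and the IFN-α libraries overlapped both. Its difference between the combined group and R848 (-0.60 ± 0.21, adjusted p = 0.0263) was lost without combined replicate 1 (-0.54, adjusted p = 0.0844), combined replicate 2 (-0.54, adjusted p = 0.0853) or R848 replicate 1 (-0.49, adjusted p = 0.0968). DESeq2's test gave an adjusted p of 0.0931.

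Pmvk, phosphomevalonate kinase, did not follow its neighbours in the pathway. It stood at 15.99, 13.8 and 17.8 CPM in the combined libraries, at 15.8, 19.5 and 19.5 CPM in the R848 libraries and at 25.8, 27.0 and 30.4 CPM in the IFN-α libraries. The 3 IFN-α libraries lay above all 6 R848-containing libraries. Pmvk was lower than with IFN-α both in the combined group (log2 fold change -0.78 ± 0.17, adjusted p = 0.000647) and with R848 (-0.61 ± 0.17, adjusted p = 0.00459). Its difference of the combined group from R848 was -0.17 with a 95% interval of -0.54 to 0.19. Acat2, the cytosolic acetyl-CoA acetyltransferase, and Ggps1, which makes geranylgeranyl diphosphate, were called in no comparison. Acat2 averaged 3.06 ± 0.123 CPM in the combined group, 5.18 ± 2.24 CPM under R848 and 3.51 ± 1.17 CPM under IFN-α, and without R848 replicate 3 it was lower in the combined group than with R848 (-1.06, adjusted p = 0.0362). Ggps1 averaged 10.7 ± 1.59, 11.2 ± 2.03 and 10.9 ± 3.60 CPM in the combined, R848 and IFN-α groups, with 95% intervals of the log2 differences from -0.52 to 0.54 at the outer bounds.

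The squalene and sterol enzymes carry the pathway on from farnesyl diphosphate to cholesterol. Their summed level was 435 ± 6.28 CPM in the combined group, 735 ± 38.0 CPM under R848 and 518 ± 22.9 CPM under IFN-α (SD, n = 3 each), again with no overlap between groups. Of the 11 genes, 8 were lower in the combined group than with R848 and none was higher, with a median log2 fold change of -0.81. The shares over all genes tested were 16.7% lower and 19.2% higher. With R848, 7 were higher and 2 lower than with IFN-α (18.4% and 19.0% of all genes tested), with a median of 0.56. Against IFN-α, 2 were lower and none higher in the combined group (14.7% and 18.5% of all genes tested), with a median of -0.26.

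Sqle, squalene epoxidase, is a rate-limiting enzyme of the sterol branch. It stood at 71.4, 68.8 and 70.6 CPM in the combined libraries, at 141, 142 and 144 CPM in the R848 libraries and at 76.7, 82.9 and 85.1 CPM in the IFN-α libraries. The replicates were tight, with R848 far above both others and the combined libraries just below the IFN-α libraries. Sqle was 2.02-fold lower in the combined group than with R848 (log2 fold change -1.02 ± 0.10, adjusted p = 7.04e-10) and higher with R848 than with IFN-α (0.80 ± 0.10, adjusted p = 5.58e-08). The difference between the combined group and IFN-α (-0.22 ± 0.10, adjusted p = 0.113) did not pass, but it did with upper-quartile factors (-0.30, adjusted p = 0.0241) and library totals alone (-0.53, adjusted p = 0.00231). The gene lies at chr15:59315077-59331192 on the plus strand.

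Cyp51, lanosterol 14-alpha-demethylase, stood at 46.8, 54.6 and 53.6 CPM in the combined libraries, at 96.5, 91.0 and 104 CPM in the R848 libraries and at 54.0, 54.1 and 55.7 CPM in the IFN-α libraries. Its combined and IFN-α libraries overlapped, and its R848 libraries lay above both. It was lower in the combined group than with R848 (log2 fold change -0.91 ± 0.11, adjusted p = 9.05e-08) and higher with R848 than with IFN-α (0.83 ± 0.11, adjusted p = 3.55e-07), and the 95% interval between the combined group and IFN-α was -0.32 to 0.17. Hsd17b7, which reduces a sterol ketone in mice, had 7.06, 10.7 and 7.81 CPM in the combined libraries, 16.4, 16.1 and 20.6 CPM in the R848 libraries and 10.8, 10.8 and 10.1 CPM in the IFN-α libraries. Here too only the R848 libraries stood apart. Hsd17b7 was 2.12-fold lower in the combined group than with R848 (-1.08 ± 0.21, adjusted p = 0.000154) and higher with R848 than with IFN-α (0.74 ± 0.21, adjusted p = 0.00508).

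Sc5d, the lathosterol desaturase, was among the least abundant, at 3.72, 6.02 and 4.40 CPM in the combined libraries, 9.79, 7.87 and 9.14 CPM in the R848 libraries and 5.78, 4.33 and 2.85 CPM in the IFN-α libraries. Its R848 libraries were again above all others. The log2 fold change was -0.95 ± 0.30 between the combined group and R848 (adjusted p = 0.0126), a call lost without combined replicate 1 (-0.84, adjusted p = 0.0526) or combined replicate 3 (-0.89, adjusted p = 0.0653). Between R848 and IFN-α it was 1.07 ± 0.31 (adjusted p = 0.00635), lost without IFN-α replicate 3 (0.82, adjusted p = 0.0617).

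The remaining genes called lower in the combined group than with R848 were Fdft1, Msmo1, Lss and Nsdhl. Fdft1, squalene synthase, averaged 61.9 ± 1.69 CPM in the combined group, 109 ± 4.53 CPM under R848 and 70.7 ± 2.56 CPM under IFN-α (log2 fold change -0.81 ± 0.10 against R848, adjusted p = 1.65e-07). An exon of Ctsb lies opposite Fdft1, and 26.4% of the reads on both strands there were on the Ctsb strand, which was not counted. Msmo1, the sterol C4-methyl oxidase, averaged 132 ± 1.29, 232 ± 39.8 and 158 ± 11.9 CPM in the combined, R848 and IFN-α groups (-0.81 ± 0.11 against R848, adjusted p = 3.51e-07). Both were also higher with R848 than with IFN-α, Fdft1 by 0.62 ± 0.10 (adjusted p = 1.03e-05) and Msmo1 by 0.56 ± 0.11 (adjusted p = 8.53e-05). Between the combined group and IFN-α the Msmo1 difference of -0.26 (adjusted p = 0.0752) passed without R848 replicate 1, again outside the contrast (-0.26, adjusted p = 0.00767). With only the 2 groups compared in the fit it passed too (-0.26, adjusted p = 0.0129).

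Lss, lanosterol synthase, averaged 13.5 ± 3.63 CPM in the combined group, 24.7 ± 1.18 CPM under R848 and 17.4 ± 0.640 CPM under IFN-α, and was lower in the combined group than with R848 (-0.85 ± 0.19, adjusted p = 0.000488). Its difference between R848 and IFN-α (0.51 ± 0.18, adjusted p = 0.0285) was lost without R848 replicate 3 (0.49, adjusted p = 0.0668), IFN-α replicate 1 (0.53, adjusted p = 0.0515), IFN-α replicate 2 (0.49, adjusted p = 0.0817) or IFN-α replicate 3 (0.49, adjusted p = 0.08). Nsdhl, a sterol dehydrogenase of the demethylation steps, averaged 36.0 ± 5.13, 48.1 ± 5.29 and 43.1 ± 4.63 CPM in the combined, R848 and IFN-α groups. Its difference from R848 (-0.43 ± 0.14, adjusted p = 0.0169) was lost without combined replicate 3 (-0.31, adjusted p = 0.158) or R848 replicate 2 (-0.34, adjusted p = 0.104).

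Dhcr7 and Ebp, which act at late steps of the route, differed in another way. Dhcr7, the 7-dehydrocholesterol reductase, stood at 22.7, 24.9 and 20.2 CPM in the combined libraries, at 29.4, 26.8 and 21.8 CPM in the R848 libraries and at 37.8, 34.2 and 41.5 CPM in the IFN-α libraries. Ebp, the sterol isomerase, stood at 21.9, 14.6 and 21.6 CPM in the combined libraries, at 20.7, 16.4 and 18.6 CPM in the R848 libraries and at 25.8, 29.6 and 29.4 CPM in the IFN-α libraries. For both genes the IFN-α libraries lay above all others, and the combined and R848 libraries overlapped. Dhcr7 was lower than with IFN-α in the combined group (-0.77 ± 0.16, adjusted p = 0.0003) and with R848 (-0.54 ± 0.15, adjusted p = 0.00543). Ebp was lower than with IFN-α with R848 (-0.61 ± 0.17, adjusted p = 0.00598). Its difference in the combined group (-0.52 ± 0.17, adjusted p = 0.0216) was lost without combined replicate 2 (-0.38, adjusted p = 0.123), IFN-α replicate 2 (-0.49, adjusted p = 0.0732) or IFN-α replicate 3 (-0.49, adjusted p = 0.0742). Tm7sf2, a sterol C14 reductase, averaged 13.9 ± 0.590 CPM in the combined group, 10.2 ± 1.01 CPM under R848 and 11.8 ± 3.14 CPM under IFN-α and passed in no comparison. Its combined libraries all lay above its R848 libraries, and its exons overlap those of Vps51 on the same strand, so its count is uncertain.

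**Figure D2:**
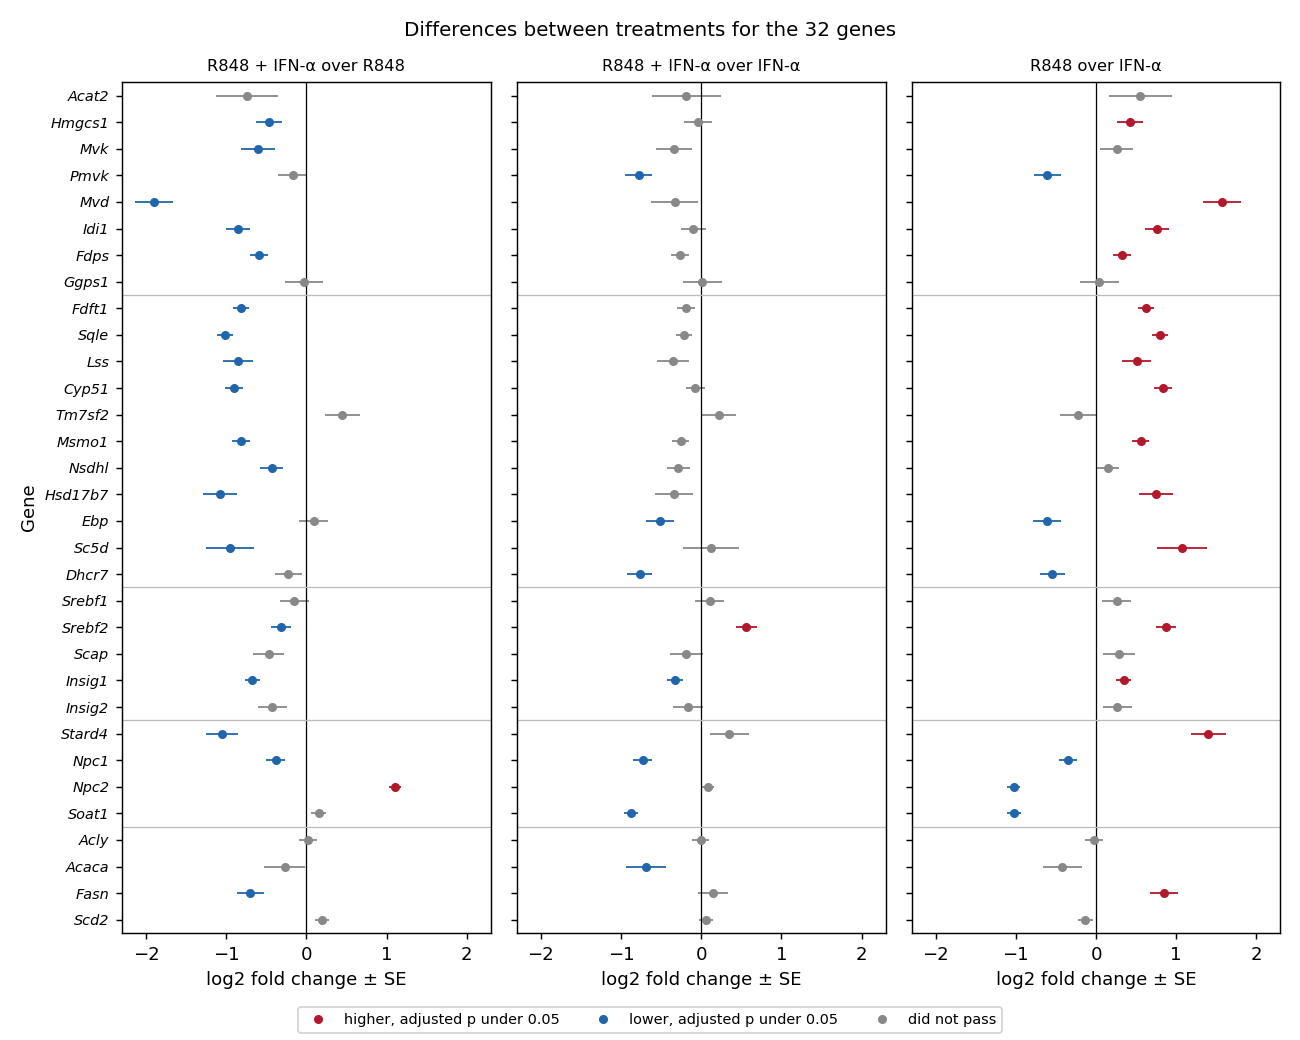
Fitted log2 fold change ± SE of each gene in the 3 comparisons, one panel each, with genes ordered by role from top to bottom; red and blue mark genes called higher and lower at an adjusted p under 0.05 and grey those that did not pass. The left panel holds 18 blue genes and 1 red, the middle panel 7 blue and 1 red, and the right panel 6 blue and 15 red.

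Some calls of the synthesis enzymes were also lost under DESeq2's test, namely Lss between R848 and IFN-α (adjusted p = 0.09), Fdps in the same comparison (adjusted p = 0.0618), and Nsdhl and Sc5d between the combined group and R848 (adjusted p = 0.052 and 0.0565). Ebp was lost there between the combined group and IFN-α (adjusted p = 0.0619). The Lss call was lost as well with unstranded counts (adjusted p = 0.0591), and the Hmgcs1 call between R848 and IFN-α without a low-count filter (adjusted p = 0.0593) or with only the 2 groups compared in the fit (adjusted p = 0.0554).

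All 5 genes of the SREBP system had log2 fold changes below 0 between the combined group and R848 (-0.68 to -0.15). All 5 were above 0 between R848 and IFN-α (0.26 to 0.88). Only Srebf2 and Insig1 were called, in both comparisons. Of all genes tested, 16.7% were called lower in the combined group than with R848, and 18.4% higher with R848 than with IFN-α. For Srebf1, Scap and Insig2 the 95% intervals between R848 and IFN-α spanned 0 (-0.11 to 0.63, -0.11 to 0.69 and -0.10 to 0.63). Of these genes, only Srebf1 had an interval spanning 0 between the combined group and R848. A shared direction is therefore not shown for all 5. Srebf2 encodes SREBP-2, the main activator of cholesterol synthesis genes. It stood at 86.2, 78.7 and 92.3 CPM in the combined libraries, at 127, 97.6 and 97.0 CPM in the R848 libraries and at 62.1, 49.4 and 63.6 CPM in the IFN-α libraries. The groups did not overlap, with R848 highest and IFN-α lowest. Srebf2 was higher than with IFN-α in the combined group (log2 fold change 0.56 ± 0.13, adjusted p = 0.000823) and with R848 (0.88 ± 0.13, adjusted p = 8.69e-07), and it was the only 1 of the 32 genes called higher in the combined group than with IFN-α. Its difference between the combined group and R848 (-0.32 ± 0.12, adjusted p = 0.0382) was lost without combined replicate 1 (-0.31, adjusted p = 0.0903), combined replicate 2 (-0.26, adjusted p = 0.156) or R848 replicate 1 (-0.16, adjusted p = 0.252), and under DESeq2's test (adjusted p = 0.103). With library totals in place of scaling factors its call against IFN-α was lost as well (0.25, adjusted p = 0.157).

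Insig1, which retains the Scap and SREBP complex and is itself an SREBP target, stood at 136, 138 and 116 CPM in the combined libraries, at 202, 211 and 206 CPM in the R848 libraries and at 157, 172 and 158 CPM in the IFN-α libraries. The groups did not overlap, with R848 highest and the combined group lowest. Insig1 was lower in the combined group than with R848 (-0.68 ± 0.10, adjusted p = 1.03e-06) and higher with R848 than with IFN-α (0.35 ± 0.09, adjusted p = 0.00365). Its lower level in the combined group than with IFN-α (-0.33 ± 0.10, adjusted p = 0.0091) was lost without combined replicate 3 (-0.25, adjusted p = 0.0999) or IFN-α replicate 2 (-0.28, adjusted p = 0.0591).

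Srebf1, whose products act mainly on fatty acid synthesis, stood at 40.5, 40.4 and 45.6 CPM in the combined libraries, at 67.1, 35.3 and 38.6 CPM in the R848 libraries and at 40.9, 42.2 and 35.8 CPM in the IFN-α libraries. R848 replicate 1 alone was high, and the groups overlapped. Its log2 fold change between the combined group and R848 was -0.15 with a 95% interval of -0.51 to 0.21. Scap stood at 19.7, 26.6 and 28.2 CPM in the combined libraries, at 48.4, 24.2 and 31.8 CPM in the R848 libraries and at 31.99, 27.0 and 27.2 CPM in the IFN-α libraries. Here too R848 replicate 1 was the highest library. The Scap difference between the combined group and R848 (-0.47 ± 0.19, adjusted p = 0.0589) did not pass, but without R848 replicate 2 it did (-0.67, adjusted p = 0.00555), as did that between R848 and IFN-α (0.49, adjusted p = 0.0427). Insig2, the second Insig gene, averaged 18.6 ± 4.78 CPM in the combined group, 24.2 ± 2.55 CPM under R848 and 20.1 ± 1.26 CPM under IFN-α and passed in no comparison. Its difference from R848 (-0.42, adjusted p = 0.0665) passed without combined replicate 2 (-0.62, adjusted p = 0.0142) or R848 replicate 1 (-0.47, adjusted p = 0.041).

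The genes of sterol transport and storage split in direction. Stard4, a cytosolic carrier that moves sterol between membranes, stood at 8.55, 18.9 and 13.4 CPM in the combined libraries, at 28.2, 25.8 and 29.5 CPM in the R848 libraries and at 8.09, 12.3 and 11.1 CPM in the IFN-α libraries. It followed the synthesis enzymes, with its R848 libraries above all others, and combined replicate 2 was the highest library of its group. Stard4 was 2.07-fold lower in the combined group than with R848 (log2 fold change -1.05 ± 0.20, adjusted p = 0.000116) and 2.64-fold higher with R848 than with IFN-α (1.40 ± 0.22, adjusted p = 3.28e-06). Its difference between the combined group and IFN-α was 0.35 with a 95% interval of -0.14 to 0.84.

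Npc1 and Npc2 act together to move cholesterol out of lysosomes, and their transcripts differed in direction between the combined group and R848 but not between R848 and IFN-α, where both were lower with R848. Npc2 stood at 997, 891 and 943 CPM in the combined libraries, at 430, 451 and 436 CPM in the R848 libraries and at 900, 873 and 906 CPM in the IFN-α libraries. Its R848 libraries lay far below the other 6, and its combined and IFN-α libraries overlapped. Npc2 was 2.15-fold higher in the combined group than with R848 (1.10 ± 0.08, adjusted p = 9.06e-13) and 2.03-fold lower with R848 than with IFN-α (-1.02 ± 0.08, adjusted p = 3.87e-12), while the 95% interval between the combined group and IFN-α was -0.08 to 0.24. The gene lies at chr12:84754562-84773152 on the minus strand. Npc1, the membrane protein of the pair, stood at 66.5, 56.3 and 55.0 CPM in the combined libraries, at 85.3, 74.6 and 70.7 CPM in the R848 libraries and at 97.9, 108 and 88.0 CPM in the IFN-α libraries. The 3 groups did not overlap, with the combined group lowest and IFN-α highest.

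Npc1 was lower in the combined group than with IFN-α (log2 fold change -0.73 ± 0.12, adjusted p = 1.09e-05), the firmest of its 3 differences. Its difference between the combined group and R848 (-0.38 ± 0.12, adjusted p = 0.0124) was lost without combined replicate 2 (-0.35, adjusted p = 0.0529) or combined replicate 3 (-0.32, adjusted p = 0.0922). Its difference between R848 and IFN-α (-0.35 ± 0.11, adjusted p = 0.0162) was lost without R848 replicate 2 (-0.33, adjusted p = 0.0533), R848 replicate 3 (-0.29, adjusted p = 0.0804) or IFN-α replicate 2 (-0.27, adjusted p = 0.119), and with library totals in place of scaling factors (-0.28, adjusted p = 0.128).

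Soat1 encodes the enzyme that esterifies cholesterol for storage. It stood at 252, 267 and 234 CPM in the combined libraries, at 202, 242 and 233 CPM in the R848 libraries and at 453, 483 and 441 CPM in the IFN-α libraries. Both R848-containing groups lay below IFN-α and overlapped each other. Soat1 was 1.83-fold lower in the combined group than with IFN-α (-0.87 ± 0.09, adjusted p = 3.26e-09) and 2.03-fold lower with R848 than with IFN-α (-1.02 ± 0.09, adjusted p = 6.54e-11). The 95% interval between the combined group and R848 was -0.04 to 0.34. The gene lies at chr1:156424525-156474331 on the minus strand.

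**Figure D3:**
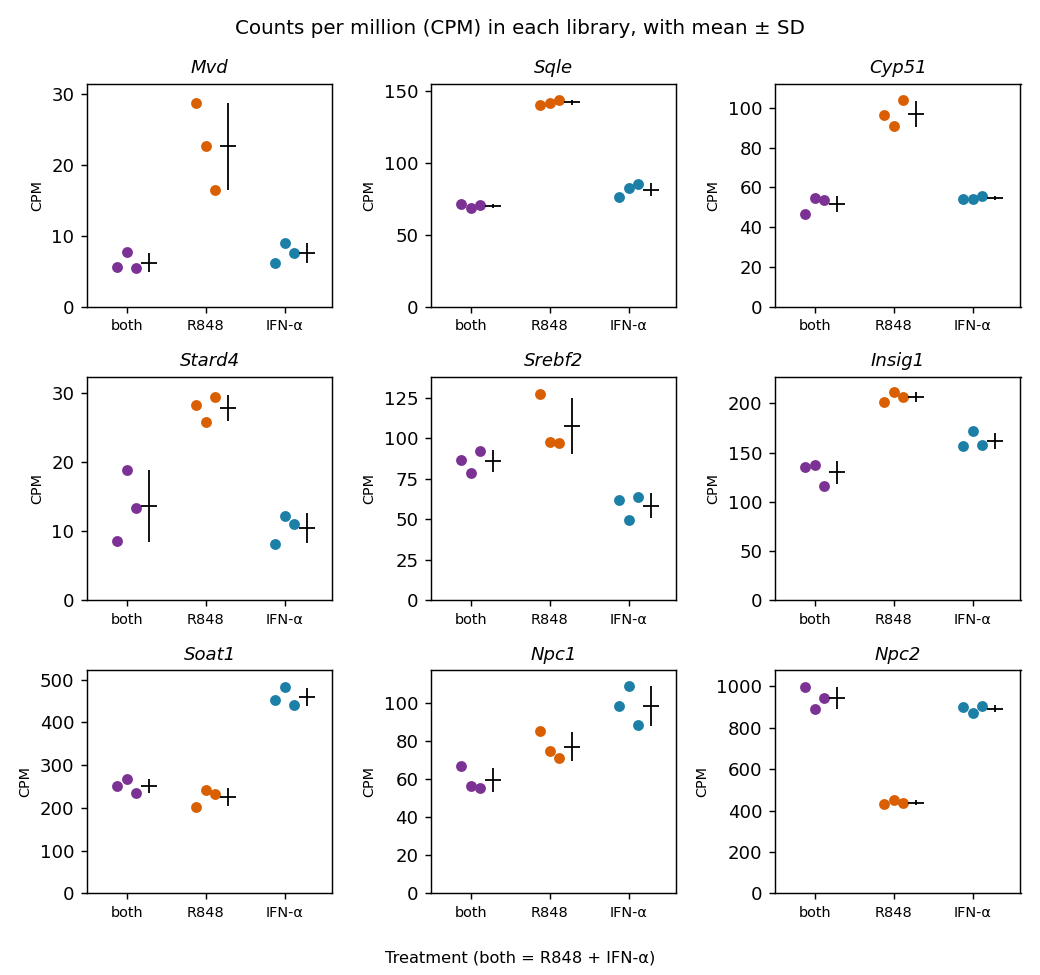
CPM in each library for 9 genes of the set, with points for the 3 libraries of each treatment and a cross for mean ± SD; both stands for R848 with IFN-α, and every axis starts at 0. Mvd, Sqle, Cyp51 and Stard4 were high with R848 alone, Npc2 was low with R848 alone, and Soat1 was low in both R848-containing groups.

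Fatty acid synthesis genes did not move as a group. Their summed level was 455 ± 13.1 CPM in the combined group, 444 ± 46.2 CPM under R848 and 450 ± 31.8 CPM under IFN-α (SD, n = 3 each), and the groups overlapped. Fasn, fatty acid synthase, was the exception, at 24.9, 32.7 and 30.4 CPM in the combined libraries, 59.9, 40.0 and 43.0 CPM in the R848 libraries and 33.2, 27.4 and 19.9 CPM in the IFN-α libraries. Its R848 libraries lay above all others, with R848 replicate 1 highest. Fasn was lower in the combined group than with R848 (log2 fold change -0.70 ± 0.17, adjusted p = 0.00155) and higher with R848 than with IFN-α (0.84 ± 0.18, adjusted p = 0.000223), while the 95% interval between the combined group and IFN-α was -0.24 to 0.53.

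Acaca, which supplies malonyl-CoA to Fasn, stood at 6.32, 6.02 and 8.61 CPM in the combined libraries, at 8.06, 9.13 and 9.14 CPM in the R848 libraries and at 14.3, 9.01 and 12.03 CPM in the IFN-α libraries. The combined libraries lay below the IFN-α libraries. That difference (-0.69 ± 0.25, adjusted p = 0.0347) was lost without combined replicate 1 (-0.61, adjusted p = 0.101), combined replicate 2 (-0.60, adjusted p = 0.104), IFN-α replicate 1 (-0.54, adjusted p = 0.166) or IFN-α replicate 3 (-0.67, adjusted p = 0.0905), under DESeq2's test (adjusted p = 0.0971) and without a low-count filter (adjusted p = 0.0511). Scd2, a stearoyl-CoA desaturase, stood at 227, 239 and 226 CPM in the combined libraries, at 206, 186 and 213 CPM in the R848 libraries and at 234, 225 and 206 CPM in the IFN-α libraries. All its values lay within a narrow range, and its difference between the combined group and R848 was 0.19 with a 95% interval of 0.01 to 0.38 (adjusted p = 0.0992). Acly, which makes cytosolic acetyl-CoA from citrate, averaged 188 ± 23.0, 186 ± 31.1 and 189 ± 16.5 CPM in the combined, R848 and IFN-α groups. Its log2 fold change of 0.02 between the combined group and R848 became -0.36 (adjusted p = 0.0244) with library totals in place of scaling factors, and 0.26 (adjusted p = 0.0305) without R848 replicate 1 and combined replicate 2.

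**Figure D4:**
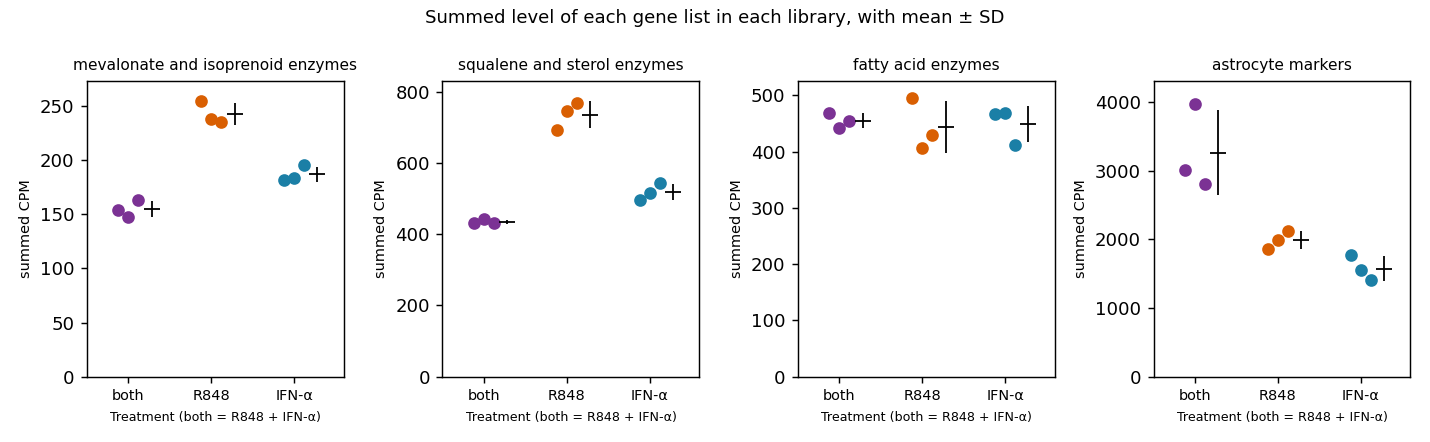
Summed CPM of the mevalonate and isoprenoid enzymes, the squalene and sterol enzymes, the fatty acid enzymes and the 11 astrocyte markers in each library, with mean ± SD; both stands for R848 with IFN-α and every axis starts at 0. Both sterol lists are highest with R848 and lowest in the combined group, the fatty acid enzymes overlap between groups, and the astrocyte markers are highest in the combined group.

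Of the 11 astrocyte markers, 10 were called higher in the combined group than with R848, beside 19.2% of all genes tested. Without R848 replicate 1 the 10 became 6. Against IFN-α, 7 were higher in the combined group, beside 18.5% of all genes tested. Of the 14 microglia markers, 6 were higher and 4 lower in the combined group than with R848 (19.2% and 16.7% of all genes tested). Compared with IFN-α, 1 microglia marker was higher and 10 were lower (18.5% and 14.7% of all genes tested). As sums, the sterol enzymes were lowest in the combined group, where the astrocyte markers were highest. Single markers varied, with mean Gja1, Aldh1l1 and Sox9 highest with IFN-α and mean Glul highest with R848. The part of either cell type in the change was not tested. Relative sums also depend on scaling, which is described with the processing limits.

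Letter matches in the promoters of the set are described here, and their part in the changes was not tested. Of the 32 genes, 26 had a window from 250 bases before to 50 bases after the start in RefSeq's GRCm38.p6 annotation, and 5 of them had more than 1, of which any could hold a match. Searched on both strands, CCAAT, the box bound by NF-Y, was in a window of 23 of these 26 genes (88.5%), against 42.3% of the 8410 tested genes with a window. Of the 18 genes called lower in the combined group than with R848, only 13 had a window. CCAAT was found for all 13 of these and for 10 of the 13 other genes with a window (76.9%). GGGCGG, the core of the GC box bound by Sp1, was found for 22 of 26 genes (84.6%), against 70.2% of tested genes. It was found for 12 of the 13 lower genes with a window (92.3%) and for 10 of the 13 others (76.9%). The sterol regulatory element form TCACNCCAC was found for 1 of 26 genes, Hmgcs1 (3.85%), against 1.41% of tested genes. These are letter matches in a short window, and no match says nothing about SREBP binding elsewhere.

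These promoter stretches run 5′ to 3′ on the gene's strand, for Mvd and Hmgcs1 of the mevalonate pathway, Fasn of fatty acid synthesis, and Soat1, which was lower in both R848-containing groups than with IFN-α. Capitals mark the letters CCAAT or their reverse complement ATTGG, the GC box GGGCGG or its reverse complement CCGCCC, and the element TCACNCCAC. The Mvd stretch is chr8:122443423-122443622, minus strand, the Hmgcs1 stretch chr13:119690151-119690350, plus strand, the Fasn stretch chr11:120824548-120824747, minus strand, and the Soat1 stretch chr1:156474332-156474531, minus strand, all on GRCm38.p6.
Mvd: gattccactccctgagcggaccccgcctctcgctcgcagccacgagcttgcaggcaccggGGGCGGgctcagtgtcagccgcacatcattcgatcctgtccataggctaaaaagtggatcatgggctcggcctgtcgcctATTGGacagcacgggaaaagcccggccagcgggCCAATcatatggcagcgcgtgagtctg
Hmgcs1: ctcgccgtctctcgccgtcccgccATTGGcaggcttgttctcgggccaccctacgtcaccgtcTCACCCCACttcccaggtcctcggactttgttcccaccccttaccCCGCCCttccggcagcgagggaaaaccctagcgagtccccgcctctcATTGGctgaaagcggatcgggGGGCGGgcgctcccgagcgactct
Fasn: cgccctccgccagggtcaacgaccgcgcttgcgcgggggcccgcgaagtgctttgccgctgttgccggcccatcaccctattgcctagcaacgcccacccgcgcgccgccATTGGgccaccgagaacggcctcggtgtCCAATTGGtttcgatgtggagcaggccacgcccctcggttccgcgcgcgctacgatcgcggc
Soat1: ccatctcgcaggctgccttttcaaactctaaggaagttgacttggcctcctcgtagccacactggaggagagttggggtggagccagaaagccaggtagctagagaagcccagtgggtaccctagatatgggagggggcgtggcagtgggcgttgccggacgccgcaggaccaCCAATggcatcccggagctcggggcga
The Hmgcs1 element TCACCCCAC begins 137 bases before the start. Fasn holds CCAAT and ATTGG overlapping in CCAATTGG, and Soat1 holds a CCAAT as well.

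Other genes of sterol and fatty acid metabolism, 41 tested of 43 listed, held more genes without a call than with one in each comparison. Against R848, 5 were higher and 9 lower in the combined group, where 19.2% and 16.7% of all genes tested were called, with a median log2 fold change of -0.02. Against IFN-α, 10 were higher and 6 lower in the combined group (18.5% and 14.7% of all genes tested), with a median of 0.13. With R848, 12 were higher and 6 lower than with IFN-α (18.4% and 19.0% of all genes tested), with a median of 0.14. The 6 lower in the combined group than with IFN-α became 3 without any 1 of the combined libraries, IFN-α replicate 1 or IFN-α replicate 2. The 6 lower with R848 than with IFN-α became 2 without IFN-α replicate 1 and 3 without IFN-α replicate 2.

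Aacs, acetoacetyl-CoA synthetase, and Elovl1, a fatty acid elongase, were lower in the combined group than with R848 (log2 fold change -1.11 ± 0.14, adjusted p = 8.37e-08, and -1.02 ± 0.12, adjusted p = 1.95e-08). Rnf139, an E3 ubiquitin ligase of the endoplasmic reticulum, went the other way. It averaged 183 ± 14.3 CPM in the combined group, 57.9 ± 4.08 CPM under R848 and 158 ± 20.7 CPM under IFN-α (1.66 ± 0.11 against R848, adjusted p = 1.54e-13). Scd1, the other stearoyl-CoA desaturase listed, was higher in the combined group than with R848 (0.43 ± 0.11, adjusted p = 0.00328) and than with IFN-α (0.53 ± 0.11, adjusted p = 0.000541), and both calls were lost with library totals in place of scaling factors (0.03, adjusted p = 0.859, and 0.21, adjusted p = 0.25). The fatty acyl-CoA synthetase Acsl1 and the elongase Elovl7 were higher than with IFN-α in both the combined group (2.13 ± 0.12, adjusted p = 1.9e-15, and 2.20 ± 0.25, adjusted p = 1.82e-08) and with R848 (2.39 ± 0.12, adjusted p = 4.19e-17, and 1.96 ± 0.25, adjusted p = 1.4e-07).

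Of 14 genes of sterol efflux and oxysterols, 3 were higher and 5 lower in the combined group than with R848, beside 19.2% and 16.7% of all genes tested, and 2 were higher and 8 lower than with IFN-α, beside 18.5% and 14.7%. Ch25h, whose product 25-hydroxycholesterol restrains SREBP processing through Insig, averaged 2271 ± 159 CPM in the combined group, 689 ± 20.4 CPM under R848 and 141 ± 20.5 CPM under IFN-α. It was higher in the combined group than with R848 (log2 fold change 1.72 ± 0.09, adjusted p = 3.86e-16) and than with IFN-α (4.01 ± 0.10, adjusted p = 8.79e-24). Abcg1, a sterol efflux pump, averaged 17.7 ± 3.21, 6.31 ± 1.09 and 50.9 ± 6.77 CPM in the combined, R848 and IFN-α groups, higher in the combined group than with R848 (1.53 ± 0.22, adjusted p = 1.53e-06) and lower than with IFN-α (-1.48 ± 0.16, adjusted p = 1.5e-08). Nceh1, which hydrolyses cholesteryl esters, was 4.26-fold lower than with IFN-α in the combined group (-2.09 ± 0.09, adjusted p = 1.57e-17) and 7.99-fold lower with R848 (adjusted p = 2.86e-21), the same direction as Soat1, which makes them.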

How the data were processed

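RNA was sequenced from 9 libraries. Per the submitters' processing notes, CASAVA 1.8.2, Trimmomatic 0.33, STAR 2.5.1 and DESeq2 were used with build mm10; the sources used here name no annotation. The authors deposited raw counts per gene, unstranded and for each strand. The reverse-strand counts were used, and reads in no gene stayed out of totals. Such reads were 39.3% to 44.4% of all pairs, unmapped and multiply mapped pairs included in the whole. Genes were filtered with filterByExpr (minimum count 10, minimum total count 15), scaled with TMM factors and fitted in 1 model of group means over all libraries with edgeR 4.0.16 (limma 3.58.1, R 4.3.3), with quasi-likelihood tests and Benjamini-Hochberg adjustment over 11002 genes. CPM use TMM-scaled totals. The fit was tested on simulated data. DESeq2 1.42.0 was an alternative.

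The members and lists were chosen with earlier results of these data known. Values per library are given for up to 4 called genes of largest change per role and comparison, and for Srebf1, Srebf2, Insig1, Scap, Hmgcs1, Sqle, Fasn and Scd2 whatever they showed. Other lists are given by means or fold changes of up to 4 called genes per comparison, and of Scd1, Ch25h and Abcg1 whatever they showed. Only part of those the rule allows are printed, and some results are not reported here. Positions and exon lengths are from GENCODE mouse release M21, promoters from RefSeq. Replicate pairs differed by more than sampling noise (chi-square per degree of freedom 1.92 to 6.27), and each library counted as 1 sample.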

Additional observations from a re-analysis of the deposited data

Results flagged for a closer look

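Fdft1 had reads on the strand opposite to its own in every library, a signal in counts that the comparisons did not use, with at least 56 forward-strand counts in any library. Forward counts were 35.5% of both strands in the combined group, 16.3% with R848 and 31.5% with IFN-α, and an exon of Ctsb lies on that strand. Npc2 also had forward-strand counts in every library, at least 6, which was 0.766% of its counts on both strands.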

How the results depend on the processing

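Of 48 called differences of the 32 genes, 33 were called under every alternative run and none reversed; of 958 values, 893 kept their call and 65 did not pass. Left-out libraries gave 14 to 19 genes lower and 1 to 2 higher in the combined group than with R848, 5 to 9 lower and 1 to 1 higher than with IFN-α, 12 to 15 higher and 5 to 6 lower with R848 than with IFN-α, and 21 to 23 among the 3 groups. In the other sterol and fatty acid genes they gave 4 to 7 higher and 6 to 9 lower in the combined group than with R848, 9 to 10 higher and 3 to 7 lower than with IFN-α, and 12 to 14 higher and 2 to 5 lower with R848 than with IFN-α. Leaving out R848 replicate 1 and combined replicate 2 together, chosen after seeing the data, gave 2 genes higher in the combined group than with R848, Npc2 and Acly.

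Upper-quartile factors shifted the median of all genes by -0.13 between the combined group and R848. Library totals alone shifted it by -0.39, and by -0.31 between the combined group and IFN-α. Genes called between the combined group and R848 then split 1715 higher and 2861 lower under upper-quartile factors and 1176 and 4976 under library totals, against 2110 and 1835, and the 32 genes split 1 and 20 or 1 and 26, against 1 and 18. Against IFN-α, 11 of the 32 were lower in the combined group under upper-quartile factors and 17 under library totals, against 7, with 0 higher under library totals. Library totals also took the other sterol and fatty acid genes to 2 higher and 19 lower than R848, 5 higher and 13 lower than IFN-α, and 3 lower with R848 than with IFN-α, and turned Acly to -0.36 between the combined group and R848. The DESeq2 test called 3 of the other genes lower in the combined group than with IFN-α and 13 of the 32 lower than with R848; the cause of these changes was not tested.

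Deviations from group means correlated no more between same-numbered libraries (-0.10 to 0.06) than between others (-0.09 to 0.06). Such values also carry counting noise, so they do not settle whether same-numbered libraries shared a culture, which the labels do not say. With a replicate block 18 of the 32 genes were lower and 1 higher in the combined group than with R848, 7 lower and 1 higher than with IFN-α, and 15 higher and 6 lower with R848 than with IFN-α. With 3 libraries a group at these depths, genes under 10 CPM in every library, such as Acat2 and Sc5d, are held to wide intervals.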

Other observations

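Mvd had few reads on the strand opposite to its own, 57 forward-strand counts against 353 reverse-strand counts over all libraries. They were 34.1% of both strands in the combined group, 2.56% with R848 and 23.5% with IFN-α. No exon of another protein-coding gene overlapped Mvd on that strand, and genes of other types were not searched.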
